A study of Mus musculus with 6 samples.

Results

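The genes described here are 42 genes of autophagy, of the lysosome and of the vacuolar proton pump (V-ATPase) that acidifies it, taken by gene name from the 24959 genes of the deposited table. All 42 were in the table and all 42 had enough reads to be tested, among 15930 tested genes. They comprise 15 autophagy genes, 14 lysosomal genes and 13 V-ATPase subunit genes. Levels were measured by RNA sequencing at postnatal day 0 in 6 mouse libraries labelled as dental epithelial cells, the layer of the forming tooth that produces the enamel-secreting ameloblasts. There were 3 control libraries, with the genotype WT, and 3 libraries labelled cKO with the genotype PKM knockout, called Pkm cKO here. Pkm encodes the M-type pyruvate kinases of glycolysis. The Cre driver, the deleted exon, the strain and any pooling of animals were not given in the sources used here, and no label says whether the controls carry a floxed allele or Cre. The series asks how loss of Pkm affects gene expression in dental epithelium while teeth form.

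Autophagy encloses cytoplasm in a membrane and delivers it to the lysosome. A kinase and a lipid kinase complex start the membrane, the LC3 and GABARAP proteins are conjugated to it, and cargo receptors bind both cargo and these proteins. The lysosome then digests the content with acid hydrolases, which need the low pH made by the V-ATPase, a rotary pump with a cytosolic V1 sector that splits ATP and a membrane V0 sector that carries protons. Transcription factors of the TFE family bind CLEAR elements in promoters of these genes and are held in the cytoplasm by mTORC1, a growth kinase complex on the lysosome. In teeth, ameloblasts take up and degrade enamel matrix proteins through lysosomes, and osteoclasts, the bone-resorbing cells around the tooth, carry many V-ATPase complexes in their plasma membrane.

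Total counts ranged from 30588350 to 39415700 per library, and the 42 genes took 0.635% to 0.728% of them. Pkm stood at 1281, 1185 and 1049 CPM (reads per 1e6 of the scaled library) in the controls whereas the Pkm cKO libraries had 309, 395 and 350.5 CPM (log2 difference -1.74 with an SE of 0.159, adjusted p 0.0109 by edgeR). The groups did not overlap, in the direction of the labels. The call of Pkm was lost when control replicate 1, 2 or 3 was left out (adjusted p 0.0792, 0.06 and 0.079, edgeR), with log2 differences of -1.67, -1.73 and -1.81. Pkm cKO replicate 3 stood apart, at 93.2 on a first principal component where the other 5 libraries ranged from -52.2 to 19.1. It also held 2769.7 CPM of 6 tested skeletal muscle markers (led by Acta1, Myh3 and Myh8), against 60.8 and 13.6 CPM in the other cKO libraries and 0.932 to 2.21 CPM in controls. The myogenic regulator Myod1 had 173 reads in that library and 0 in the other 5. Counts and medians without this library are given for the 42 genes together, the V-ATPase genes and the lysosomal genes.

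Markers of the labelled epithelium were abundant in every library. Summed over 10 genes led by Krt5, Krt14 and Krt17, they stood at 15576, 13467 and 14341 CPM in WT libraries and 9646, 11395 and 10545 CPM in Pkm cKO libraries, lower in every cKO library. Ameloblast markers (Amelx, Sp6, Enam and 6 others) summed to 12201 to 27532 CPM across controls and 981 to 7022 CPM in cKO libraries. All 9 were below 0 and 8 were lower without overlap, against 12.2% of all tested genes, and 1 (Odam) passed the threshold. Osteoclast markers summed to 388, 174 and 233 CPM in WT libraries and 1543, 441 and 1288 CPM in cKO libraries. Of these markers 10 of 10 had a log2 fold change above 0, though 0 of them passed the adjusted threshold. An unadjusted p under 0.05 on the higher side, found by edgeR in 9.57% of all tested genes, held for 9 of these markers. They were led by the protease genes Mmp9 (93.8 ± 43.1 against 437 ± 216 CPM) and Ctsk (75.8 ± 41.5 against 348 ± 211 CPM) and the acid phosphatase gene Acp5 (59.8 ± 22.6 against 232 ± 133 CPM; SD, n = 3 each), and no osteoclast marker was at 0. Macrophage markers (Csf1r, C1qb, C1qc and 8 others) summed to 51.2 to 59.8 CPM across controls and 95.9 to 156 CPM in cKO libraries, with 10 of 11 above 0, 1 (C1qc) past the threshold and none at 0. Mesenchyme and fibroblast markers (Col1a1, Col1a2, Col3a1 and 9 others) summed to 20100.2 to 31744 CPM across controls and 18747 to 40659 CPM in cKO libraries. Although these sums overlap, 8 of the 12 genes were higher without overlap, against 11.2% of all tested genes, and 0 of the 12 passed. The sums of odontoblast markers (Dspp, Col11a2, Dmp1 and 2 others) were 2827 to 6005 CPM across controls and 499 to 4280.2 CPM in cKO libraries. Endothelial markers (Cdh5, Pecam1, Tie1 and 5 others) summed to 342 to 415 CPM across controls and 359 to 639.7 CPM in cKO libraries. Erythroid markers (Hbb-bs, Hba-a1, Hbb-bt and 3 others tested) held 575 to 805 CPM across controls and 268 to 355 CPM in cKO libraries, with the 3 named genes lower past the threshold. Schwann cell and neuron markers (Tubb3, Mbp, Stmn2 and 3 others tested) held 354 to 503 CPM across controls and 174 to 379 CPM in cKO libraries. In such tissue, fewer cells of a type and less RNA per cell cannot be told apart, and the part of other cells in the results below was not tested.

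None of the 42 genes had a Benjamini-Hochberg adjusted p under 0.05 in edgeR's test, the threshold used throughout, where 88 of all tested genes (0.552%) did. Those 88 were 55 higher and 33 lower, against 39 and 16 with DESeq2 size factors and 57 and 18 with upper-quartile scaling. DESeq2 and limma-voom also called 0 of the 42. At an unadjusted p under 0.05 edgeR marked 3 of the 42, all lower in Pkm cKO and all in the V1 sector of the V-ATPase, against 7.90% of all tested genes marked lower, and 0 higher, against 9.57%. This depended on the libraries and the scaling. Without Pkm cKO replicate 3 edgeR marked 6 of the 42, and 2980 of 16230 tested genes in either direction. Of the 6, Gaa, Hexa, Glb1, Ctsa and Ctsz were higher and only Atp6v1h was lower. With upper-quartile scaling edgeR marked 5, of which 3 were lysosomal and 2 in V1, and 2754 of 15930 tested genes. The number ran from 1 to 8 of the 42 with each library left out in turn. The 8 were without Pkm cKO replicate 1, where 3620 of 16330 tested genes were marked. On the lower side, 13 of the 42 had no overlap between groups, where 12.2% of all tested genes did so, and on the higher side 2 had none, against 11.2%. Log2 fold changes of Pkm cKO against control ran from -0.45 to 0.35 and were below 0 for 31 of 42 genes, against 49.2% of all tested genes, and for 27 of 42 without Pkm cKO replicate 3. Their median was -0.31 for the V-ATPase genes, -0.081 for the lysosomal genes and -0.14 for the autophagy genes, against 0.0068 over all tested genes. The 4 lysosomal glycosidases and the 13 V-ATPase genes lay on opposite sides of 0.

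**Figure D1:**
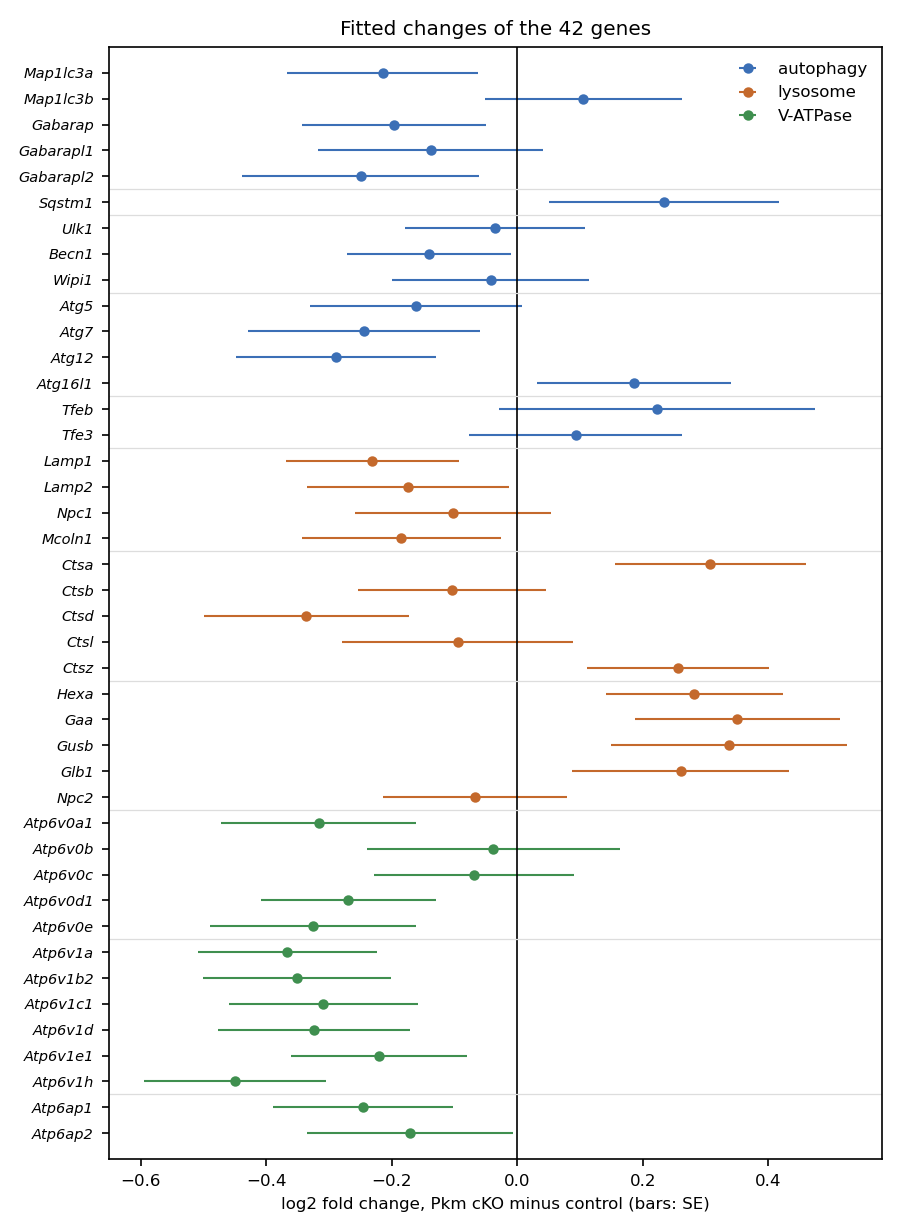
Fitted log2 fold change (x axis, Pkm cKO minus control) of each of the 42 genes (y axis, in the order of their roles), with bars of 1 SE and colors for autophagy, lysosome and V-ATPase genes. All 13 V-ATPase genes lie left of 0, while Hexa, Gaa, Gusb and Glb1 lie right of it between 0.26 and 0.35.

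Promoter windows of 250 bases before to 50 bases after an annotated start were at hand for 33 of the 42 genes (39 windows, RefSeq, mouse build GRCm38.p6, which is not the mm39 build of the counts and is used for sequence only). The E-box CACGTG, which reads the same on both strands, was in at least 1 window of 13 of the 33 genes (39.4%), against 8.09% of all 27025 genes with a window. TCACGTGA, the core of the CLEAR element and a longer form of the same E-box, was in 6 of the 33 (18.2%), against 1.12% of all genes. These 6 were Atp6v1a, Atp6v0e and Atp6v0d1 of the V-ATPase and Ctsd, Ctsa and Mcoln1 of the lysosome, and none was an autophagy gene. The sequences around the core are shown for the 4 of these genes with the lowest p. Their log2 fold changes were -0.37 for Atp6v1a, -0.34 for Ctsd, 0.31 for Ctsa and -0.33 for Atp6v0e. Atp6v0d1 was at -0.27 and Mcoln1 at -0.185, so that of the 6 only Ctsa was above 0. Each sequence runs 5′ to 3′ along the gene's strand, with TCACGTGA in capitals. The stretches lie at chr16:44139322-44139461, minus strand for Atp6v1a, at chr7:142387857-142387996, minus strand for Ctsd, at chr2:164833690-164833772, plus strand for Ctsa and at chr17:26676387-26676416, plus strand for Atp6v0e, all in GRCm38.p6.
Atp6v1a: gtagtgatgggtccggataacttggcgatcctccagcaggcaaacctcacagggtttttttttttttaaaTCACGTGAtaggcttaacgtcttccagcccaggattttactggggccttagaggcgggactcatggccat
Ctsd: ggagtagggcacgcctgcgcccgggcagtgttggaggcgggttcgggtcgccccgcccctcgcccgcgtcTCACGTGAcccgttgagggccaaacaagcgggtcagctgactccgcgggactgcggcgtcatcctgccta
Ctsa: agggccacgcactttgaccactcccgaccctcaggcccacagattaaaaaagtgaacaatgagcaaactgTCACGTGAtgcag
Atp6v0e: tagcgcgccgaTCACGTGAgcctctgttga
The core began 132 bases before the start of Atp6v1a, 99 before that of Ctsd and 13 before that of Ctsa, and at base 3 after that of Atp6v0e. Of all 13 genes with an E-box in a window, 10 had a log2 fold change below 0 and 3 (Ctsa, Gaa and Glb1) above 0. Among all 42 genes, with or without an E-box, 31 were below 0. The match is one of letters only, and no binding was measured.

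The 3 lowest log2 differences among the 42 genes belonged to the V1 sector. Each of its 6 genes among the 42 was lower in all 3 Pkm cKO libraries than in any control, as were 12.2% of all tested genes, though for Atp6v1e1 only by a margin far below the spread of either group. Of 5 further V1 genes tested, Atp6v1g1 was also lower without overlap (142 ± 11.4 against 109 ± 10.01 CPM, log2 difference -0.38). Atp6v1f (85.03 ± 10.2 against 84.01 ± 12.2 CPM, -0.018), Atp6v1b1, Atp6v1c2 and Atp6v1g2 overlapped. These 5 were outside the naming rule and are given to complete the sector. Atp6v1h, a regulatory subunit that couples ATP splitting to proton flow, had the lowest p. It stood at 78.2, 68.04 and 74.4 CPM in the WT libraries and 59.5, 51.2 and 50.9 CPM in Pkm cKO libraries, or 73.5 ± 5.12 against 53.8 ± 4.89 CPM (log2 difference -0.45 with an SE of 0.145, adjusted p 0.161 by edgeR). Atp6v1a, the catalytic subunit that splits ATP, had 137, 138 and 131 CPM as opposed to 118, 94.2 and 102 CPM (log2 difference -0.37 with an SE of 0.143, adjusted p 0.230 by edgeR). Its partner in the ATP-binding ring, Atp6v1b2, had 172, 159 and 170.0 CPM as opposed to 150.4, 114 and 129 CPM (log2 difference -0.35 with an SE of 0.149, adjusted p 0.266 by edgeR). These are the 3 genes with an unadjusted p under 0.05, and in each Pkm cKO replicate 1 came nearest to the controls.

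In the other V1 genes Pkm cKO replicate 1 was again the highest cKO library. Atp6v1c1, of a stalk between the sectors, had 69.6, 62.8 and 66.6 CPM in the WT libraries and 59.95, 47.7 and 53.04 CPM in those of Pkm cKO (log2 difference -0.31, SE 0.1499). The rotor subunit gene Atp6v1d had 59.2, 66.3 and 59.2 CPM as opposed to 54.3, 43.7 and 49.5 CPM (log2 difference -0.32, SE 0.153). For Atp6v1e1, a stalk subunit, the values were 135, 129.9 and 146 CPM and 129.9, 112 and 111 CPM, where Pkm cKO replicate 1 at 129.88 CPM and control replicate 2 at 129.89 CPM were all but equal (log2 difference -0.22, SE 0.1403). None of the 3 passed the threshold.

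Genes of the membrane-embedded V0 sector were less uniform. Atp6v0a1, one of several forms of the large a subunit, had 194, 167 and 172 CPM in the WT libraries and 158, 150.2 and 119 CPM in those of Pkm cKO (log2 difference -0.32 with an SE of 0.156, adjusted p 0.327 by edgeR). Atp6v0d1, which joins the rotor to the proton ring, had 134, 131 and 147 CPM as opposed to 123, 115 and 104 CPM (log2 difference -0.27 with an SE of 0.139, adjusted p 0.350 by edgeR). For both genes the groups did not overlap and Pkm cKO replicate 3 was the lowest library. Atp6v0e, a small membrane subunit, averaged 100.1 ± 8.24 against 79.9 ± 14.03 CPM (SD, n = 3 each) with a log2 fold change of -0.33, and Pkm cKO replicate 1 fell among its controls. The genes of the proton-carrying ring had the smallest log2 fold changes of the 13: Atp6v0c averaged 138 ± 19.1 against 132 ± 13.8 CPM and Atp6v0b 112 ± 2.52 against 109 ± 30.97 CPM, with log2 fold changes of -0.069 and -0.038. Atp6v0b ranged from 76.6 to 138 CPM within the Pkm cKO group, against 110.2 to 115 CPM in controls.

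Of the accessory subunits, Atp6ap1, which helps assemble the pump in the endoplasmic reticulum, had 296, 260.3 and 259 CPM in the WT libraries and 253, 220.0 and 213 CPM in those of Pkm cKO (log2 difference -0.25 with an SE of 0.144, adjusted p 0.410 by edgeR), without overlap. Atp6ap2, also known as the prorenin receptor, averaged 112 ± 12.3 against 99.4 ± 15.7 CPM and overlapped (log2 difference -0.17). Pkm cKO replicate 1 was the highest cKO library for 13 of 13 V-ATPase genes, and Pkm cKO replicate 3 the lowest for 8 and replicate 2 for 5. Summed, the 13 genes held 1754, 1601 and 1712 CPM in WT libraries and 1596, 1356 and 1294 CPM in Pkm cKO libraries, so that replicate 1 lay just below the lowest control. Without Pkm cKO replicate 3, 11 of 13 log2 fold changes were below 0 (Atp6v0b and Atp6v0c were above) and the median was -0.20. The V1 genes with an unadjusted p under 0.05 then went from 3 to 1, and 7 genes still lay below every control, where 18.4% of all tested genes were lower without overlap in those 5 libraries. With upper-quartile scaling 12 of 13 were below 0, Atp6v0b being the exception. The median then was -0.27 and 7 genes did not overlap, against 8 with DESeq2 size factors and 9 as reported. Of all tested genes 10.1%, 11.8% and 12.2% were lower without overlap in these runs, in that order.

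**Figure D2:**
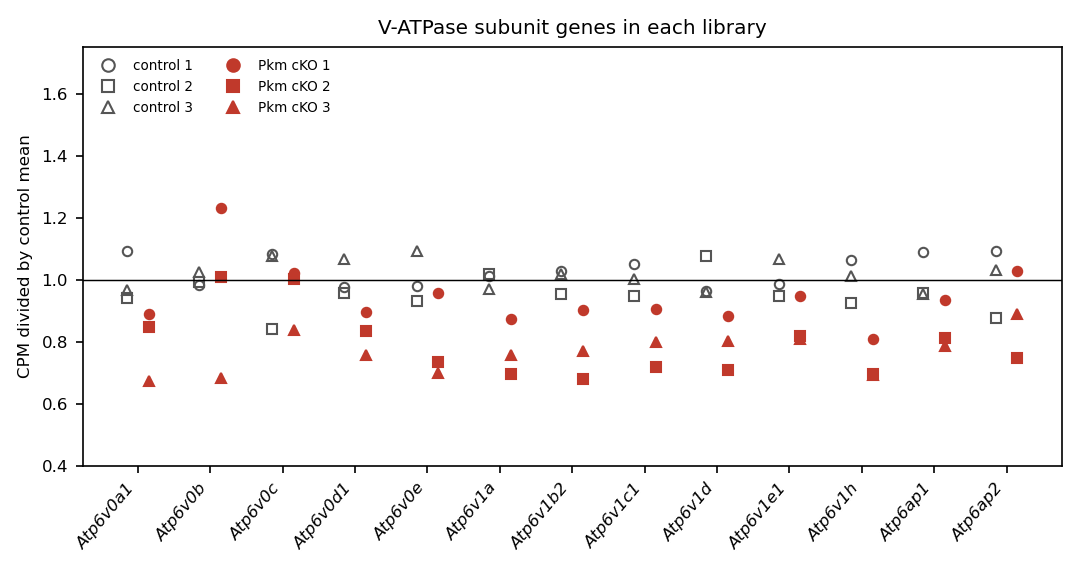
Level of each V-ATPase gene (x axis) in each library as CPM divided by the mean of the 3 controls (y axis), with open gray symbols for controls, filled red symbols for Pkm cKO and 1 symbol shape per replicate number. For the 6 V1 genes shown the cKO libraries lie between 0.681 and 0.948 times the control mean and the controls between 0.925 and 1.08 times.

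Some V-ATPase subunits exist in alternative forms used by different cells, and the genes of these forms did not share a direction. Tcirg1 encodes the a3 form, which osteoclasts use and need. It was the 1 gene of 14 further V-ATPase and pump-assembly genes tested that passed the threshold, and it rose from 20.6, 21.7 and 21.2 CPM in controls to 63.1, 48.1 and 72.9 CPM in those of Pkm cKO (log2 difference 1.54 with an SE of 0.188, adjusted p 0.0312 by edgeR). Its call was lost with limma-voom (adjusted p 0.0672), with edgeR without robust estimation (0.0621) and without control replicates 1, 2 or 3 (0.239, 0.167 and 0.158), while its log2 fold change stayed between 1.41 and 1.69 in every alternative run. Atp6v0d2, the d form of osteoclasts, had 2.97, 1.48 and 1.25 CPM as opposed to 12.2, 2.35 and 9.16 CPM (log2 difference 2.06 with an SE of 0.597, adjusted p 0.136 by edgeR) and did not pass. For Atp6v0d2 the groups overlapped, since Pkm cKO replicate 2 lay below control replicate 1. The osteoclast marker sum given above, which includes Atp6v0d2, was higher in every Pkm cKO library than in any control, as Tcirg1 was. Within the Pkm cKO group both were lowest in replicate 2, while the sum peaked in replicate 1 and Tcirg1 in replicate 3. Among the controls the sum ran from 174 to 388 CPM and Tcirg1 from 20.6 to 21.7 CPM. The part of osteoclasts in these values was not tested. Atp6v0a4, a form known from acid-secreting epithelia, had 11.8, 15.6 and 13.9 CPM as opposed to 8.33, 10.5 and 6.65 CPM (log2 difference -0.70 with an SE of 0.246, adjusted p 0.191 by edgeR), lower in every Pkm cKO library without passing. Atp6v0a2, which was outside the naming rule and is given to complete the forms of a, averaged 69.4 ± 9.03 against 70.001 ± 2.18 CPM. Of the 14 further genes, 7 were above 0 and 7 below, with a median of -0.0029. The groups did not overlap for 3 on the lower and 1 on the higher side, against 12.2% and 11.2% of all tested genes.

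**Figure D3:**
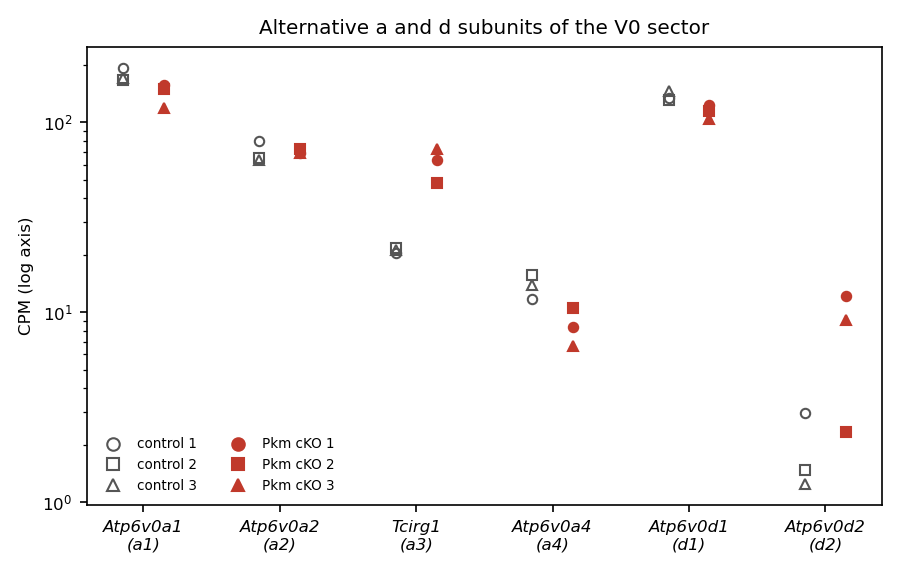
CPM on a log axis (y axis) of the genes for 4 forms of the a subunit and 2 forms of the d subunit of the V0 sector (x axis) in each library, with open gray symbols for controls and filled red symbols for Pkm cKO. Tcirg1 lies at 20.6 to 21.7 CPM in controls and 48.1 to 72.9 CPM in Pkm cKO libraries, while Atp6v0a1 and Atp6v0d1 lie lower in Pkm cKO than in any control.

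The glycosidases of the lysosome stood on the other side of 0 from the pump. All 4 measured had a positive log2 fold change, and 0 passed the threshold. Gaa, which breaks down glycogen, had 184, 161 and 176 CPM in the WT libraries and 213, 266 and 187 CPM in those of Pkm cKO (log2 difference 0.35 with an SE of 0.164, adjusted p 0.304 by edgeR). Hexa, a subunit of the hexosaminidase that degrades gangliosides, had 83.3, 87.04 and 86.6 CPM as opposed to 115, 102 and 94.9 CPM (log2 difference 0.28 with an SE of 0.141, adjusted p 0.333 by edgeR). For both genes every Pkm cKO library lay above every control, which held for 11.2% of all tested genes, with Pkm cKO replicate 3 the nearest to the controls. Gusb, the beta-glucuronidase, averaged 39.9 ± 7.18 against 50.4 ± 7.57 CPM (log2 difference 0.34, SE 0.188), and Glb1, the beta-galactosidase, 63.6 ± 2.15 against 76.2 ± 16.1 CPM (0.26, SE 0.173; SD, n = 3 each). Both overlapped, Gusb through control replicate 1 at 48.2 CPM and Glb1 through Pkm cKO replicate 3 at 61.7 CPM. Without Pkm cKO replicate 3, Gaa, Hexa and Glb1 were higher without overlap and had an unadjusted p under 0.05 by edgeR. In that setting 2926 of 16230 tested genes were higher without overlap, and 2980 had such a p in either direction. None of the glycosidases passed the adjusted threshold of edgeR.

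A ratio within a library does not depend on how libraries are scaled. The summed CPM of these 4 glycosidases divided by that of the 13 V-ATPase genes was 0.218, 0.216 and 0.211 in controls and 0.301, 0.358 and 0.303 in Pkm cKO libraries. This ratio was picked after the values were seen and is given without a test. The controls lay within a narrow band and every cKO library lay above it. The ratio of the 6 V1 genes to the 5 V0 genes overlapped, at 0.949, 1.01 and 0.936 in controls and 0.872, 0.785 and 1.02 in Pkm cKO libraries.

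The 5 cathepsin genes were divided. Ctsd, the aspartic protease, had 777, 697 and 758 CPM in the WT libraries and 708, 560.0 and 501 CPM in those of Pkm cKO (log2 difference -0.34 with an SE of 0.163, adjusted p 0.321 by edgeR), with Pkm cKO replicate 1 among the controls and the other two below them. Ctsb, a cysteine protease, had 728, 668 and 827 CPM as opposed to 742, 624 and 703 CPM (log2 difference -0.10 with an SE of 0.149, adjusted p 0.766 by edgeR), and its groups overlapped. Ctsl, a further cysteine protease, ranged from 192 to 313 CPM in Pkm cKO libraries around controls of 251 to 273 CPM (log2 difference -0.10). The remaining 2 stood above 0: Ctsa, a carboxypeptidase that also protects beta-galactosidase and neuraminidase from degradation, averaged 171 ± 7.63 against 211 ± 30.8 CPM (log2 difference 0.31, SE 0.152), and Ctsz, a carboxypeptidase of the papain family, 157 ± 12.5 against 188 ± 19.01 CPM (0.26, SE 0.145). In both, Pkm cKO replicate 3 lay within the range of the controls. Without that library both were higher without overlap, with an unadjusted p under 0.05 and adjusted p-values in edgeR of 0.158 for Ctsa and 0.260 for Ctsz. Of the 16230 genes tested then, 2926 were higher without overlap and 2980 had an unadjusted p under 0.05 in either direction.

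Genes of the lysosomal membrane were all 4 below 0. Lamp1, a common marker of the lysosomal membrane, had 821, 726 and 832 CPM in the WT libraries and 694, 692 and 641 CPM in Pkm cKO libraries without overlap (log2 difference -0.23 with an SE of 0.138, adjusted p 0.424 by edgeR). Its relative Lamp2, which also serves chaperone-mediated autophagy, averaged 262 ± 9.84 against 232 ± 40.4 CPM (log2 difference -0.17), the calcium channel gene Mcoln1 55.9 ± 3.25 against 49.2 ± 6.54 CPM (-0.18) and the cholesterol transporter gene Npc1 65.6 ± 4.11 against 61.1 ± 8.77 CPM (-0.10), and these 3 overlapped. Npc2, which hands cholesterol to Npc1, had 292, 274 and 314 CPM as opposed to 317, 267 and 256 CPM (log2 difference -0.068 with an SE of 0.147, adjusted p 0.849 by edgeR), with overlapping groups. None of them passed the threshold. The median of the 14 lysosomal genes, -0.081, turned to 0.038 without Pkm cKO replicate 2 and to -0.022 without replicate 3, where Npc2 turned to 0.0048.

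**Figure D4:**
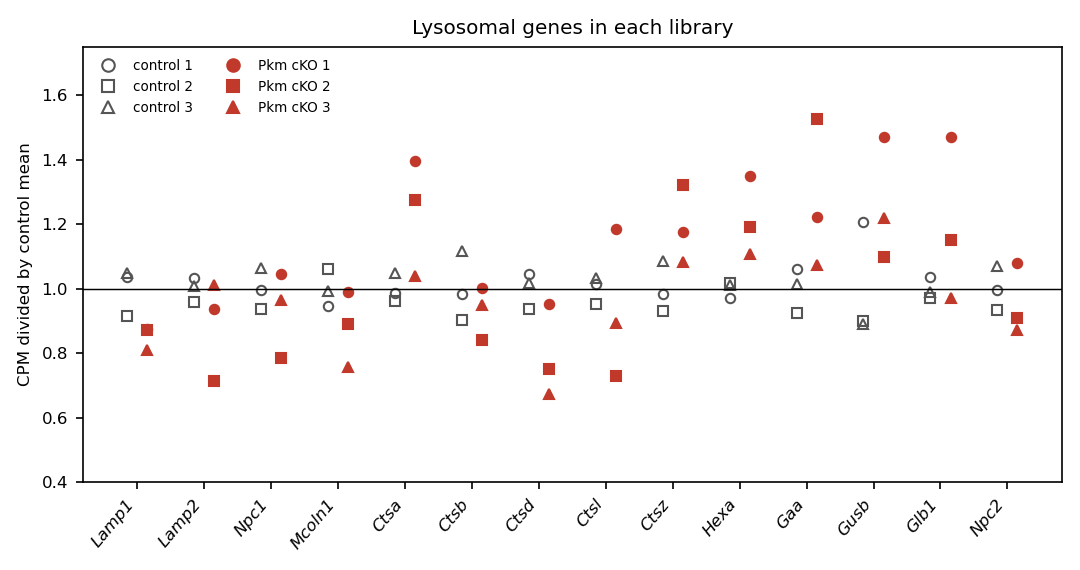
Level of each of the 14 lysosomal genes (x axis) in each library as CPM divided by the mean of the 3 controls (y axis), with open gray symbols for controls and filled red symbols for Pkm cKO. Hexa and Gaa have every Pkm cKO library above the controls, Lamp1 has every one below, and the cKO libraries of the 14 genes spread from 0.673 to 1.53 times the control mean.

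The LC3 and GABARAP genes, whose protein products coat the autophagosome, overlapped between the groups. Map1lc3b had 152, 166 and 203 CPM in the WT libraries and 199.8, 172 and 189 CPM in those of Pkm cKO (log2 difference 0.11 with an SE of 0.156, adjusted p 0.775 by edgeR). Map1lc3a had 104, 96.2 and 125 CPM as opposed to 101, 88.5 and 91.3 CPM (log2 difference -0.21 with an SE of 0.152, adjusted p 0.508 by edgeR). Gabarap had 183, 181 and 219 CPM as opposed to 185, 168 and 156 CPM (log2 difference -0.20 with an SE of 0.147, adjusted p 0.529 by edgeR). In each of the 3 the ranges of the groups overlapped. Gabarapl1 had 72.2, 101 and 112 CPM and 89.7, 80.7 and 89.1 CPM (log2 difference -0.14), where control replicate 1 was the lowest of the 6 libraries. Gabarapl2 had 36.7, 40.7 and 33.9 CPM and 38.3, 28.4 and 26.9 CPM (log2 difference -0.25, SE 0.189), where Pkm cKO replicate 1 lay among the controls and the other cKO libraries below them. Of the 5, 4 were thus below 0 and Map1lc3b above, with 0 past the threshold and overlap in all 5.

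Sqstm1, the cargo receptor that carries ubiquitinated proteins to LC3, had 255, 268 and 395 CPM in the WT libraries and 346, 359 and 374 CPM in those of Pkm cKO (log2 difference 0.23 with an SE of 0.183, adjusted p 0.547 by edgeR). The cKO libraries lay close together, and control replicate 3 stood above them while the other controls stood below. The log2 difference of Sqstm1 was 0.46 without control replicate 3, 0.11 without control replicate 1 and 0.14 without control replicate 2, and in none of these did it pass. Of the genes that start the membrane, Becn1, of the lipid kinase complex, had 133, 129 and 139 CPM as opposed to 124, 119 and 119.9 CPM (log2 difference -0.14 with an SE of 0.131, adjusted p 0.618 by edgeR), which did not overlap. The kinase gene Ulk1 averaged 123 ± 6.16 against 119.8 ± 12.96 CPM (log2 difference -0.036) and Wipi1, which binds the lipid made by that complex, 62.7 ± 6.16 against 60.9 ± 7.51 CPM (-0.043), with overlap in both.

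Among the genes that conjugate LC3 to the membrane, Atg12 had 39.5, 47.1 and 40.1 CPM in the WT libraries and 34.5, 36.1 and 33.1 CPM in those of Pkm cKO (log2 difference -0.29 with an SE of 0.159, adjusted p 0.380 by edgeR). Its conjugation partner Atg5 had 29.4, 29.2 and 35.6 CPM as opposed to 26.7, 28.5 and 28.9 CPM (log2 difference -0.16 with an SE of 0.169, adjusted p 0.663 by edgeR). Both were lower in every Pkm cKO library than in any control, Atg5 by less than 1 CPM between the nearest libraries. Atg16l1, which directs that conjugate to the membrane, had 38.1, 39.8 and 44.7 CPM as opposed to 49.4, 43.3 and 46.7 CPM (log2 difference 0.19 with an SE of 0.155, adjusted p 0.573 by edgeR), with 1 cKO library among the controls and the rest above. Atg7, the enzyme that activates both conjugation systems, averaged 26.6 ± 2.78 against 22.5 ± 2.69 CPM (log2 difference -0.24). Both transcription factor genes stood apart in 1 library: Tfeb had 19.99, 16.9 and 20.6 CPM in the WT libraries and 18.9, 31.3 and 16.9 CPM in Pkm cKO libraries, and Tfe3 51.1, 50.7 and 51.3 CPM and 46.7, 66.3 and 50.4 CPM, both highest in Pkm cKO replicate 2. Their log2 fold changes were 0.22 (SE 0.252) and 0.093 (SE 0.1698), and without that library -0.091 and -0.066.

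Genes of the same pathways outside the 42 were taken from 5 lists. Of 33 further autophagy genes, 22 were below 0 and 11 above (median -0.046), 0 passed, and at an unadjusted p under 0.05 4 were lower and 0 higher, against 7.90% and 9.57% of all tested genes. Tecpr1, which tethers autophagosomes to lysosomes, had 78.2, 67.03 and 59.5 CPM in the WT libraries and 49.97, 39.3 and 38.04 CPM in those of Pkm cKO (log2 difference -0.69 with an SE of 0.175, adjusted p 0.100 by edgeR). Atg10, an enzyme of Atg12 conjugation, averaged 7.95 ± 1.35 against 4.62 ± 0.8799 CPM and Vmp1, a membrane protein of autophagosome formation, 57.9 ± 5.35 against 45.6 ± 1.64 CPM. Of 39 further lysosomal enzyme genes, 19 were above 0 and 20 below, 0 passed, and 8 were higher and 5 lower at an unadjusted p under 0.05, against 9.57% and 7.90% of all tested genes. The lowest p belonged to Aga, which cleaves glycoprotein remnants, at 51.98, 43.4 and 40.5 CPM as opposed to 28.9, 18.3 and 16.2 CPM (log2 difference -1.10 with an SE of 0.236, adjusted p 0.0736 by edgeR). Naglu, a heparan sulfate glycosidase, averaged 32.8 ± 4.14 against 20.04 ± 3.86 CPM (log2 difference -0.71 with an SE of 0.205, adjusted p 0.127 by edgeR), and so lay on the other side of 0 from the 4 glycosidases above.

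Of 32 further genes of the lysosomal membrane and of sorting tested, 11 were above 0 and 21 below, 0 passed, and at an unadjusted p under 0.05 2 were higher and 3 lower, against the same 9.57% and 7.90%. Cd68, a membrane protein typical of macrophages and osteoclasts, had 12.8, 11.5 and 10.2 CPM in the WT libraries and 27.8, 17.6 and 24.7 CPM in those of Pkm cKO (log2 difference 1.02 with an SE of 0.227, adjusted p 0.0781 by edgeR), beside the macrophage and osteoclast sums given above. Tmem175, a lysosomal ion channel, averaged 31.8 ± 4.18 against 19.3 ± 4.16 CPM (log2 difference -0.72 with an SE of 0.214, adjusted p 0.136 by edgeR) and Slc11a2, an iron transporter, 50.5 ± 11.4 against 34.2 ± 4.42 CPM. Of 30 genes tested that act on mTORC1 or TFE factors, 19 were below 0 and 11 above (median -0.11), 0 passed, and 3 were lower and 0 higher at an unadjusted p under 0.05, against 7.90% and 9.57% over all tested genes. These 3 were Prkaa2, a catalytic subunit of the energy sensor AMPK (13.9 ± 2.98 against 7.42 ± 3.395 CPM, log2 difference -0.90 with an SE of 0.337, adjusted p 0.215 by edgeR), Zkscan3, described as a repressor of autophagy genes (62.01 ± 12.6 against 45.7 ± 3.36 CPM, log2 difference -0.44 with an SE of 0.178, adjusted p 0.244 by edgeR), and the TFE family gene Mitf (23.5 ± 12.2 against 12.1 ± 4.29 CPM, log2 difference -0.96 with an SE of 0.404, adjusted p 0.272 by edgeR). The calls of Tecpr1, Aga, Naglu, Cd68, Tmem175 and Atp6v0d2 depended on the tool and the settings. All 6 passed with DESeq2 and 0 of them with limma-voom or with edgeR as used here. In edgeR, Tecpr1, Aga and Cd68 passed without the filter on low counts, Tecpr1 and Aga without Pkm cKO replicate 1, and Cd68 and Atp6v0d2 without Pkm cKO replicate 2.

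Side by side, the summed levels show how the groups of genes compare with the marker sums that did not overlap between the groups. The V-ATPase sum of Pkm cKO was 0.838 times that of controls, the autophagy sum 0.995 times, the lysosomal sum 0.94 times and the dental epithelium marker sum 0.728 times. The osteoclast marker sum was 4.11 times and the macrophage marker sum 2.5 times that of controls. Further sums without overlap were those of 3 lists. The ameloblast markers were at 0.158 times, the erythroid markers at 0.475 times and the skeletal muscle markers, mostly through Pkm cKO replicate 3, at 557 times. Whether the shift of these markers has a part in the values of the V-ATPase or lysosomal genes was not tested.

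**Figure D5:**
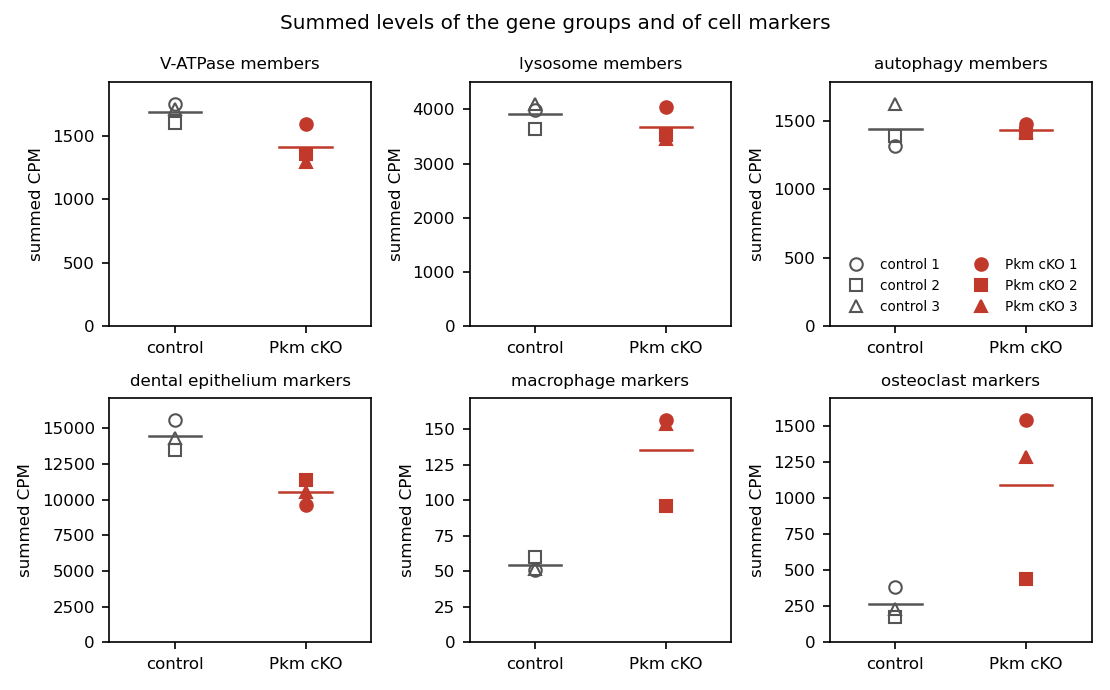
Summed CPM (y axis, from 0) of the V-ATPase, lysosomal and autophagy genes and of markers of dental epithelium, macrophages and osteoclasts in the control and Pkm cKO groups (x axis), with 1 point per library and a line at each group's mean. The V-ATPase and epithelial sums are lower in every cKO library than in any control, and the macrophage and osteoclast sums are higher in every one.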

How the data were processed

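RNA was sequenced from 6 libraries labelled as dental epithelial cells at postnatal day 0, made from 200 ng of total RNA each, per the labels' protocols. The authors deposited 1 table of raw gene-level read counts, in whole numbers. The submitters' processing notes name fastp, HISAT2 and build mm39. Versions, the counting program, its strand setting and the annotation were not given in the sources used here. Reads of antisense, overlapping or near-identical genes cannot be told apart. Groups came from the sample titles, which call the samples biological replicates without saying whether each is a separate animal, so a p-value covers only sample-to-sample spread, which may be technical. All 6 per-sample columns were used.

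Genes were kept by edgeR's filterByExpr, scaled by TMM and tested two-sided by quasi-likelihood F test (glmQLFTest after a robust glmQLFit) in edgeR 4.0.16 under R 4.3.3, and p-values of all 15930 tested genes were adjusted by Benjamini-Hochberg. CPM use the scaled library sizes, and SE is the absolute log2 fold change over the square root of F. CPM is not divided by gene length, so levels of different genes were not compared. The biological coefficient of variation was 0.300, larger than counting error for all 42 genes, whose lowest count was 586. No libraries were duplicates (chi-square per gene between any pair at least 28.5).

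The 42 genes, their subgroups and all other lists were chosen with earlier results of these data known. Values per library are printed for genes whose groups do not overlap, for the gene with the lowest p and the gene with the highest mean CPM of each subgroup, for the LC3 and GABARAP genes and for Tfeb and Tfe3. Of the further pathway lists the 3 genes with the lowest p are named, except 1 that is not reported here, and of the marker lists the 3 with the highest CPM. Alternatives tried were scaling by DESeq2 size factors or upper quartiles, dropping the filter (1 read sufficed) or requiring 1 CPM in 3 libraries, each library left out, a replicate block, the tools DESeq2 1.42.0 and limma-voom (limma 3.58.1), and edgeR without robust estimation. For the named genes outside the 42, these alternatives were chosen after seeing the data. The procedure was tested on simulated counts with changes larger than any seen in the 42 genes. That test therefore does not show how well changes of their size are found.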

Additional observations from a re-analysis of the deposited data

How the results depend on the processing

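Across the 14 alternatives, 0 of the 42 genes passed the adjusted threshold. The number of genes called over the whole table was 88 and moved to 55 with DESeq2 size factors, 518 without a filter beyond 1 read, 1098 with DESeq2, 2 with limma-voom and 2 in edgeR without robust estimation, and it ran from 0 to 640 when 1 library was left out. The 0 arose in edgeR without control replicate 1, 2 or 3, where 1532, 1766 and 2495 genes had an unadjusted p under 0.05. With the replicate number as a block 708 genes were called and 0 of the 42, and Tecpr1, Aga, Naglu, Cd68 and Atp6v0d2 passed. The labels do not say whether the numbers pair the samples. Deviations from the group means correlated at 0.235, 0.015 and 0.215 for replicates 1, 2 and 3. Those for replicates 1 and 3 were above every pair of unlike numbers, while control replicate 2 correlated best with Pkm cKO replicate 1 (0.07). These correlations do not settle whether the samples are paired. With 1 library left out, the median log2 fold change ran from -0.15 to -0.047 for autophagy genes (highest without control replicate 3), from -0.17 to 0.038 for lysosomal genes (highest without Pkm cKO replicate 2) and from -0.40 to -0.20 for V-ATPase genes. Of 378 values of the 27 genes printed per library, 375 kept their direction and their side of the threshold. The other 3 reversed with 1 library left out: Tfeb ran from -0.091 to 0.40, Tfe3 from -0.066 to 0.19 and Npc2 from -0.17 to 0.0048, and the cause was not tested. Changes of the size seen here, at most 0.45 on the log2 scale, had an SE of 0.13 to 0.25.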
